A study of Homo sapiens with 16 samples.

Results

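The genes of glycolysis and of the transcriptional response to low oxygen were followed through 4 treatments of MDA-MB-231 cells. They were picked by gene symbol and number 38 of the 37864 genes in the count table. All 38 passed the filter on low counts that left 17991 genes to test. They comprise 3 transporters, 16 glycolytic enzymes, 3 regulators of glycolytic flux, 4 genes of the oxygen-sensing pathway and 12 further genes known to respond to hypoxia. RNA sequencing covered 4 libraries for each of 4 conditions, 16 libraries in all: treatment with afatinib, with paclitaxel, with the 2 drugs at once (called the combination), and with DMSO. MDA-MB-231 is an established cell line of breast cancer without oestrogen and progesterone receptors or HER2 amplification, grown here in DMEM with serum. Afatinib irreversibly inhibits kinases of the EGFR family, paclitaxel stabilises microtubules, and DMSO is the solvent control. Neither doses nor durations of treatment are in the labels, which also do not say whether the libraries of a group came from separate cultures, so the tests measure the spread between these libraries, which may be technical. The series title names synthetic lethality of the 2 drugs, so the combination was also set against the sum of the single-drug changes.

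Glycolysis breaks glucose down to pyruvate, which is then either reduced to lactate and exported or passed to the mitochondria. The hypoxia-inducible factor HIF-1 is made of an oxygen-labile subunit, HIF1A, and a stable partner, ARNT. Prolyl hydroxylases of the EGLN family mark HIF1A for VHL-dependent degradation when oxygen is present. When oxygen falls, the stabilised factor raises transcription of glucose transporters, most glycolytic enzymes, PDK1, carbonic anhydrases, VEGFA and several of the EGLN genes themselves. HIF1A is controlled mainly at the protein level, so its RNA is not a readout of its activity.

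The libraries held 28366004 to 48108577 counts. The 38 genes together took 1.59% to 2.04% of them. Within each group, replicates 1 and 2 had a higher labelled RNA concentration than replicates 3 and 4. Concentrations in replicates 1 and 2 were 1134.9 and 868.6 ng/µl with afatinib, 345.6 and 429.7 with paclitaxel, 685.1 and 561.5 with the combination, and 1050.5 and 1290.9 with DMSO. In replicates 3 and 4 they were 180.6 and 188 ng/µl with afatinib, 300.5 and 204.2 with paclitaxel, 167.6 and 118 with the combination, and 292.1 and 330 with DMSO. The drug-treated libraries thus had less RNA than the DMSO libraries of the same replicate numbers, except afatinib replicate 1 against DMSO replicate 1 and paclitaxel replicate 3 against DMSO replicate 3. Mitochondrially encoded transcripts took 2.26% to 9.71% of counts and were highest in combination replicate 4, the library with the lowest concentration. This share was higher in every drug-treated library than in the DMSO library of the same number, and higher in replicates 3 and 4 (4.09% to 9.71%) than in replicates 1 and 2 (2.26% to 3.48%). It therefore moved with both the treatments and the sets, and its part in the results was not tested. Markers of the labelled line were expressed: VIM lay at 844 to 1213, CD44 at 850 to 2142 and EGFR at 420 to 1051 CPM (library-size-scaled counts, with TMM factors). ESR1, the oestrogen receptor, lay at 0.156 to 0.491 CPM, KRT19 at 0.0232 to 0.229 and the leukocyte marker PTPRC at 0 to 0.111 CPM. Other luminal markers were detected: the progesterone receptor gene PGR at 3.8 to 6.44, GATA3 at 8.22 to 14.25 and EPCAM at 6.60 to 13.66 CPM. The highest fibroblast markers were COL1A1 at 9.56 to 22.84 and PDGFRB at 1.89 to 8.12 CPM. The highest endothelial marker was KDR at 1.055 to 4.18 CPM. Among the blood markers CD14 was highest, at 0.402 to 1.70 CPM. The 7 luminal breast markers found in the table, of 8 listed, summed to 24.2 to 26.7 CPM with afatinib, 27.3 to 30.4 with paclitaxel, 21.9 to 29.5 with the combination and 27.2 to 29.9 with DMSO, and their part in any result was not tested. In bulk RNA, fewer cells that express a gene and less of its RNA per cell cannot be told apart.

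In DMSO-treated cells 9 of the 16 glycolytic enzymes were the most abundant of these transcripts per length. Per kilobase of exon, the steady-state level of GAPDH, which oxidises glyceraldehyde 3-phosphate, was 1113 ± 158 CPM per kb (SD, n = 4). It was followed by the enolase ENO1 at 659 ± 48, triose phosphate isomerase TPI1 at 418 ± 63 and the pyruvate kinase PKM at 336 ± 13 CPM per kb. LDHA and LDHB, the lactate dehydrogenase subunits, lay at 267 ± 20 and 257 ± 30 CPM per kb, which is within their spread. Levels per kb depend on the deposited gene lengths (6210 bases for LDHA and 2983 for LDHB). The length of the transcripts expressed here was not measured. Before division by length, LDHA had 1657 ± 125 and LDHB 767 ± 90 CPM, and PKM had 2876 ± 109 and TPI1 1129 ± 171 CPM. PGAM1, ALDOA and PGK1 stood at 178 ± 21, 178 ± 24 and 175 ± 11 CPM per kb and did not differ beyond their spread either. The glucose transporter SLC2A1 (GLUT1) was the highest gene that is not an enzyme, at 125 ± 54 CPM per kb. The hypoxia-responsive genes spanned a wide range. ADM at 60.6 ± 18.03 and P4HA1 at 39.7 ± 12.5 CPM per kb lay among the enzymes HK1 (67.5 ± 0.5), ENO2 (39.1 ± 1.1) and HK2 (37.2 ± 2.7), and BNIP3 (19.0 ± 3.1) lay above PFKM (13.3 ± 0.047) and PFKL (13.0 ± 0.5). At the low end, PDK1 stood at 1.40 ± 0.11, EGLN3 at 0.911 ± 0.135, CA9 at 0.711 ± 0.488, SLC16A1 at 0.651 ± 0.128 and ANKRD37 at 0.598 ± 0.110 CPM per kb. CA9, SLC16A1 and ANKRD37 thus lay within one another's spread.

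**Figure D1:**
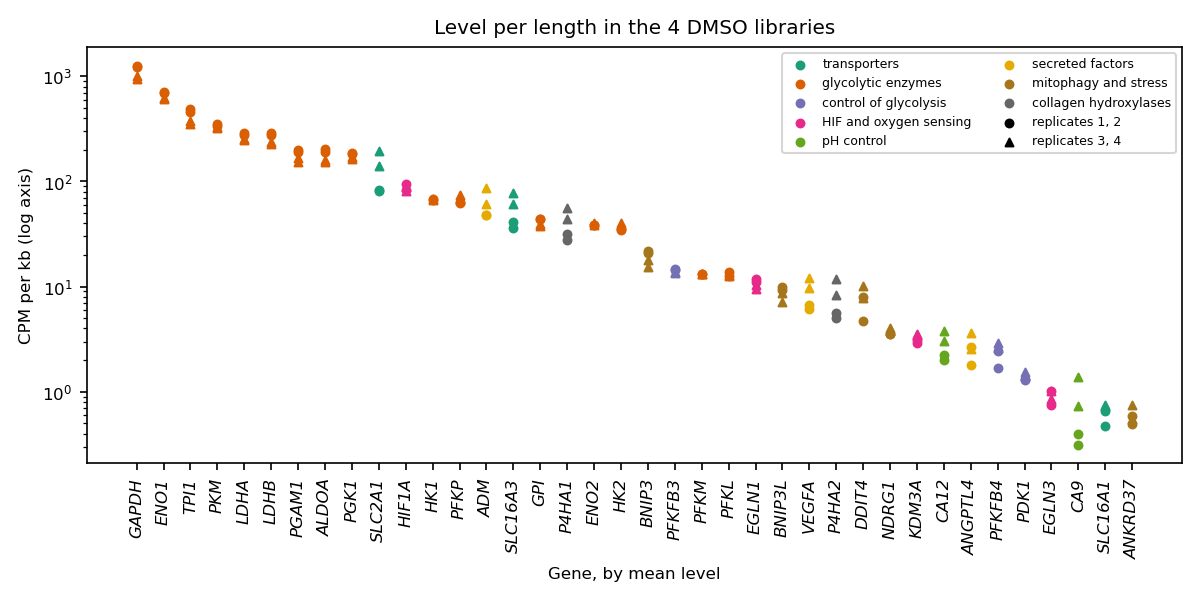
Level of each of the 38 genes in the 4 DMSO libraries, as CPM per kilobase of exon on a log axis, with genes ordered by mean; circles are replicates 1 and 2, triangles replicates 3 and 4. Glycolytic enzymes fill the first 9 places, from GAPDH at 1113 CPM per kb, and the last place is held by ANKRD37 at 0.598 CPM per kb.

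With each treatment, 17 of the 38 genes (44.7%) were called as differing from DMSO, but in different directions. Afatinib raised 13 genes and lowered 4, paclitaxel raised 4 and lowered 13, and the combination raised 6 and lowered 11. A change was called at an adjusted p below 0.05 in edgeR's quasi-likelihood test with Benjamini-Hochberg adjustment over all genes tested, in a fit with the concentration set (replicates 1 and 2 or 3 and 4) as a term. The labels give concentrations but name no such set. RNA concentration also differed between treatments within each set, and the set term does not remove that difference. The effects of a drug and of RNA concentration therefore cannot be fully told apart in any comparison of treatments below. Every adjusted p given without another method comes from this test, every ± on a log2 fold change is its standard error, and every group has 4 libraries. Of all genes tested, 19.1% were called with afatinib (9% higher and 10.1% lower), 20.5% with paclitaxel (8.65% higher and 11.9% lower) and 38% with the combination (18.5% higher and 19.5% lower). Among well-expressed genes (average log2 CPM of at least 3, a background added after the results were seen), 24.2% were called with afatinib, 27.4% with paclitaxel and 48.4% with the combination, against 14, 15 and 17 of the 34 glycolysis and hypoxia genes above that level. The combination count is therefore near the background at that level. The median log2 fold change of the 38 genes was −0.02 with afatinib, −0.07 with paclitaxel and −0.09 with the combination, beside −0.00 over all genes in each comparison. Among the 16 glycolytic enzymes, afatinib raised 3 and lowered 1, paclitaxel lowered 4 and raised none, and the combination raised 1 and lowered 4. All 16 are well expressed, and these enzyme counts are near or below the well-expressed background in each comparison. Among the other 22 genes, afatinib raised 10 and lowered 3, paclitaxel raised 4 and lowered 9, and the combination raised 5 and lowered 7. A total of 8 genes were called with no treatment: ALDOA, PGK1, PGAM1, ENO1, PKM, LDHA, LDHB and ANKRD37.

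**Figure D2:**
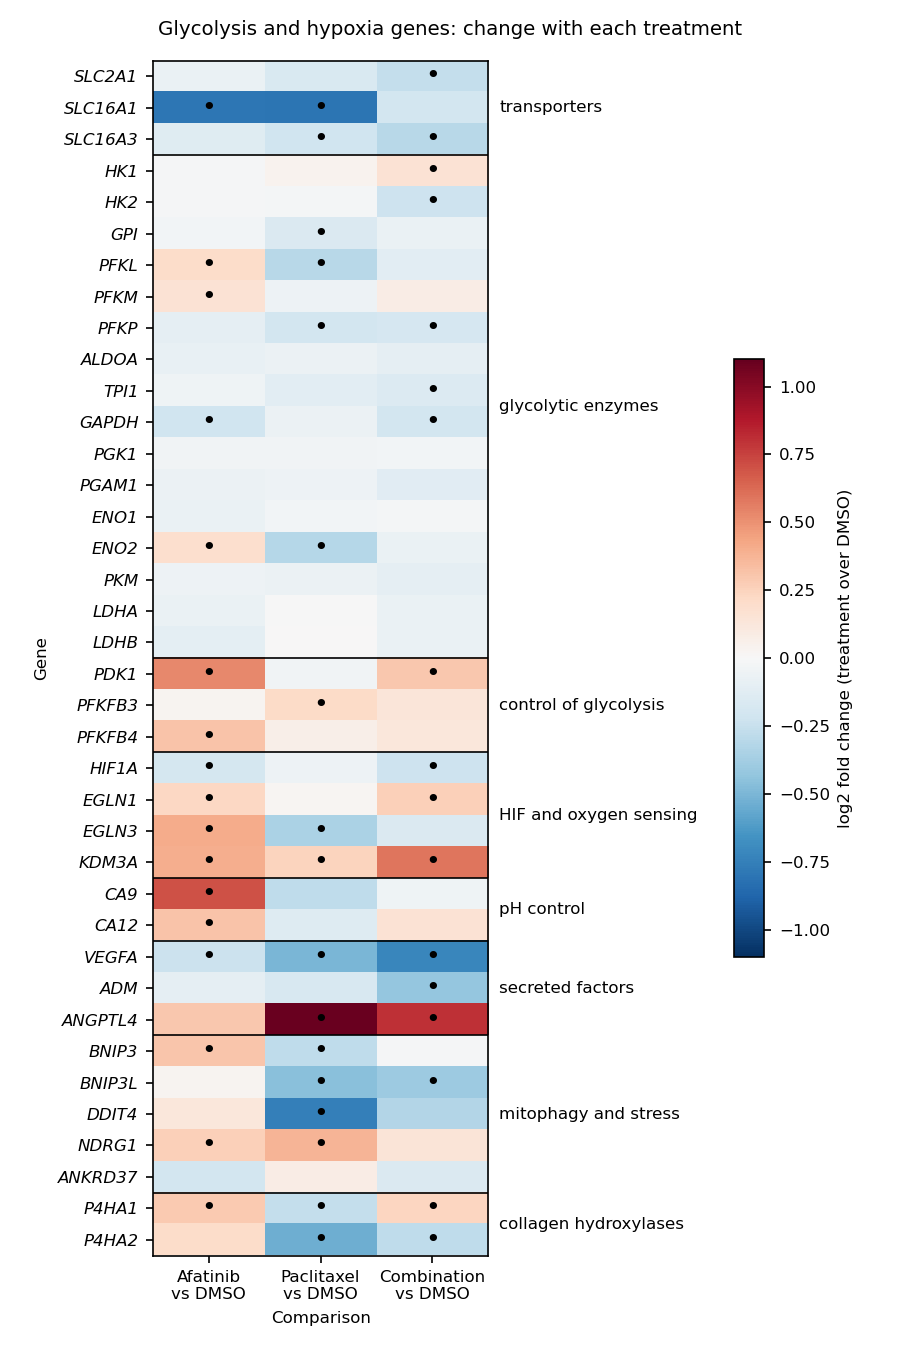
Log2 fold change over DMSO (colour, −1.1 to 1.1) of the 38 genes with afatinib, paclitaxel and the combination, grouped by role; a dot marks an adjusted p below 0.05. The afatinib column holds 13 higher and 4 lower calls, the paclitaxel column 4 higher and 13 lower, and most abundant enzymes have no dot in any column.

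How firm these calls were differed between genes. Every called gene changed in the same direction within replicates 1 and 2 and within replicates 3 and 4 in each comparison with DMSO. With the labelled RNA concentration (log2) as a covariate in place of the set, 9 of the 17 afatinib calls, 13 of the 17 paclitaxel calls and 13 of the 17 combination calls remained. Of all 17991 genes, 3432, 3694 and 6830 were called with the set and 2294, 5407 and 7009 with this covariate. The calls that remained both with this covariate and after leaving out any 1 of the 16 libraries were 7 with afatinib (SLC16A1, PFKL, ENO2, PDK1, EGLN1, KDM3A and BNIP3). With paclitaxel they were 10 (SLC16A1, PFKL, PFKP, ENO2, PFKFB3, VEGFA, ANGPTL4, BNIP3L, NDRG1 and P4HA2). With the combination they were 10 (SLC16A3, PFKP, PDK1, HIF1A, EGLN1, KDM3A, VEGFA, ADM, ANGPTL4 and BNIP3L). Without any term for the set, which then adds to the spread between replicates, 2 genes were called with afatinib, 3 with paclitaxel and 2 with the combination. Of all 17991 genes, 380, 625 and 2310 were called in that fit.

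The core of a hypoxia response element, where HIF-1 binds, is written ACGTG or GCGTG. These letters were searched on both strands in the RefSeq promoter windows (GRCh38.p14, 250 bases before to 50 after the annotated start), which were matched for 34 of the 38 genes. ACGTG occurred in 14 of the 34 (41.2%) and in 21.4% of all 35116 promoters in the table, and GCGTG in 16 (47.1%) and in 36.5%. Either was found in 25 genes (73.5%), against 48.4% of all promoters. The 34 genes entered with 1 window each, while the 35116 promoters include every window of a gene. Base composition was not matched, so these shares do not test enrichment. ACGTG lies within the palindrome CACGTG, an E-box that other factors bind, in 4 of the 34 windows (11.8%: ANKRD37, BNIP3, LDHA and GAPDH) and in 7.26% of all promoters. The 250 bases before the start are printed for the 5 genes that moved in opposite directions with the single drugs and for CA9, a textbook HIF-1 target and the gene with the largest rise with afatinib. Capitals mark ACGTG and GCGTG on either strand (CACGT and CACGC are their reverse complements). The windows lie at chr12:6914330-6914579 on the plus strand for ENO2, chr10:131981924-131982173 on the minus strand for BNIP3, chr10:73096867-73097116 on the minus strand for P4HA1, chr21:44299803-44300052 on the plus strand for PFKL, chr14:33951075-33951324 on the minus strand for EGLN3 and chr9:35673678-35673927 on the plus strand for CA9.
ENO2: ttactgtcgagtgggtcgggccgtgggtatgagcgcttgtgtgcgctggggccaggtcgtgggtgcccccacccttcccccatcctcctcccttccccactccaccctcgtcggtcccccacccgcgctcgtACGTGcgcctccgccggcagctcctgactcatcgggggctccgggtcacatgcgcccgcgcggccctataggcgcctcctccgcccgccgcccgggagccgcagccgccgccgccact
BNIP3: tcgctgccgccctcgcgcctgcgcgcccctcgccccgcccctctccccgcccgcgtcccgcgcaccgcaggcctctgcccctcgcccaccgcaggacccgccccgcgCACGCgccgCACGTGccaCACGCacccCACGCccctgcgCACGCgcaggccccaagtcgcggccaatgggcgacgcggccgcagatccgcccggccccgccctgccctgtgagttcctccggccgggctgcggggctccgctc
P4HA1: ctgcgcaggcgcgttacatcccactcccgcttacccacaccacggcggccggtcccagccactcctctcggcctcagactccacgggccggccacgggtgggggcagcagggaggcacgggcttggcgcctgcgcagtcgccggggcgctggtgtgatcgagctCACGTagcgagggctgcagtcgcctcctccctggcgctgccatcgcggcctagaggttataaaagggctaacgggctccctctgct
PFKL: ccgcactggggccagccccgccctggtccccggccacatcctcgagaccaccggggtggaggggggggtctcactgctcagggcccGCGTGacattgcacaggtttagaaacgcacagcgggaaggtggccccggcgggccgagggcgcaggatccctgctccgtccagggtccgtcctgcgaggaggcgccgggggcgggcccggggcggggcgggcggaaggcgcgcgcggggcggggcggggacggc
EGLN3: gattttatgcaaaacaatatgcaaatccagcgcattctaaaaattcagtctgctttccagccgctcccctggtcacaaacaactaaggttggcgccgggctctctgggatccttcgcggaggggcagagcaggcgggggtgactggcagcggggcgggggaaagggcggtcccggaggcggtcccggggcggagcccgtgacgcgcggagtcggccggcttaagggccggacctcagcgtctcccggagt
CA9: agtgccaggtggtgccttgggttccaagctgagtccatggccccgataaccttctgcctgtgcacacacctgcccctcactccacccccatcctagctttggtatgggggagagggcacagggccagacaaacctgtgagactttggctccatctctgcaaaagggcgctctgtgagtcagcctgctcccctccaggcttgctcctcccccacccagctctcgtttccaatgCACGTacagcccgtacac
ENO2 had 1 ACGTG whose first base is at −118 from the start. BNIP3 had 4 GCGTG and 1 CACGTG clustered between −143 and −104. P4HA1 had 1 ACGTG on the opposite strand at −86, PFKL 1 GCGTG at −164 and CA9 1 ACGTG on the opposite strand at −18. EGLN3 had neither in this window. A match is a description of the letters, and binding was not measured.

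The transporters that bring glucose in and carry lactate out were lower or not called in every treatment, and the lactate carrier SLC16A1 (MCT1) moved most with the single drugs. SLC16A1 had 1.66, 1.97, 2.25 and 2.05 CPM in the afatinib libraries (replicates 1 to 4 here and in all lists of 4), 1.55, 2.11, 2.12 and 2.07 in paclitaxel, 2.52, 2.43, 3.56 and 3.60 in the combination, and 3.45, 2.50, 4.00 and 3.88 in DMSO. Both single drugs lay below every DMSO library without overlap, while the combination overlapped DMSO and lay above every single-drug library. The log2 fold change over DMSO was −0.80 ± 0.13 with afatinib (adjusted p = 0.00012) and −0.80 ± 0.13 with paclitaxel (adjusted p = 9.4e-05). With the combination it was −0.20 ± 0.13 (adjusted p = 0.22; 95% interval −0.46 to 0.06), although with RNA concentration as the covariate this fall was called as well. The gene lies at chr1:112911847-112957013 (hg38, minus strand), and its antisense neighbour averaged 0.0706 CPM.

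SLC2A1 had 328, 318, 721 and 641 CPM with afatinib, 320, 325, 594 and 606 with paclitaxel, 257, 267, 579 and 704 with the combination, and 339, 352, 594 and 822 with DMSO. Its level in replicates 3 and 4 was far above that in replicates 1 and 2 in every group, and the groups overlapped across the sets. It fell with the combination (log2 fold change −0.27 ± 0.09, adjusted p = 0.018), by −0.40 within replicates 1 and 2 and −0.14 within replicates 3 and 4. That call was lost without combination replicate 1, 2 or 3 or DMSO replicate 2 or 4 (adjusted p up to 0.099). The change was −0.08 ± 0.09 with afatinib and −0.17 ± 0.09 with paclitaxel, neither called. SLC16A3 (MCT4), the lactate exporter of glycolytic cells, averaged 448 ± 171, 414 ± 117 and 394 ± 130 CPM with afatinib, paclitaxel and the combination, and 488 ± 174 CPM with DMSO. It fell with the combination (−0.31 ± 0.08, adjusted p = 0.0032) and narrowly with paclitaxel (−0.22 ± 0.08, adjusted p = 0.047), where the call was lost in 11 of the 16 fits that leave out 1 library (adjusted p up to 0.196).

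The abundant enzymes of the pathway moved little. GAPDH had 3362, 3007, 2470 and 2547 CPM with afatinib, 3597, 3224, 3039 and 2762 with paclitaxel, 3208, 2953, 2675 and 2665 with the combination, and 3745, 3696, 3003 and 2827 with DMSO. Replicates 3 and 4 were lower than replicates 1 and 2 in every group, and within each pair of replicates afatinib and the combination lay below DMSO. GAPDH fell with afatinib (−0.22 ± 0.06, adjusted p = 0.013) and with the combination (−0.20 ± 0.06, adjusted p = 0.013), and was −0.07 ± 0.06 with paclitaxel. Dropping afatinib replicate 2 or 3 ended the afatinib call (adjusted p up to 0.052). The combination call was lost without combination replicate 2 or DMSO replicate 1 (adjusted p up to 0.077), and both were lost with RNA concentration as the covariate (adjusted p = 0.20 and 0.62). The table also lists 39 rows of GAPDH pseudogenes, with 3.61% as many counts as GAPDH itself, so reads may be split between near-identical copies.

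LDHA, which reduces pyruvate to lactate, had 1722, 1697, 1446 and 1436 CPM with afatinib, 1784, 1705, 1606 and 1521 with paclitaxel, 1705, 1613, 1507 and 1485 with the combination, and 1709, 1809, 1546 and 1564 with DMSO. The 4 groups overlapped. Its log2 fold change was −0.08 ± 0.05 with afatinib, −0.00 ± 0.05 with paclitaxel (95% interval −0.11 to 0.11) and −0.07 ± 0.05 with the combination, none called. ALDOA, PGK1, PGAM1, ENO1, PKM and LDHB were not called either, with changes between −0.13 (PGAM1, combination) and 0.01 (LDHB, paclitaxel). TPI1 was called lower with the combination (−0.15 ± 0.06, adjusted p = 0.045), but the call was lost in 14 of the 16 fits that leave out 1 library (adjusted p up to 0.145) and the sign turned with RNA concentration as the covariate (0.051).

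Among the enzymes, the minor isoforms and the phosphofructokinases did move. PFKL, the liver-type subunit of phosphofructokinase, the committed step of glycolysis, had 137, 127, 137 and 130 CPM with afatinib, 92.5, 87.6, 99.1 and 94.6 with paclitaxel, 95.8, 108, 110 and 113 with the combination, and 114, 122, 115 and 112 with DMSO. All afatinib libraries lay above and all paclitaxel libraries below DMSO. PFKL rose with afatinib (0.20 ± 0.06, adjusted p = 0.014), fell with paclitaxel (−0.31 ± 0.06, adjusted p = 0.00026) and was −0.12 ± 0.06 with the combination (adjusted p = 0.094). ENO2, the neuronal-type enolase, showed the same order, with 184, 183, 196 and 199 CPM with afatinib, 132, 129, 139 and 138 with paclitaxel, 146, 157, 170 and 164 with the combination, and 166, 163, 174 and 166 with DMSO. Again no afatinib or paclitaxel library overlapped DMSO. Its change was 0.19 ± 0.05 with afatinib (adjusted p = 0.0075), −0.32 ± 0.05 with paclitaxel (adjusted p = 3.1e-05) and −0.08 ± 0.05 with the combination (adjusted p = 0.23). The abundant enolase ENO1 stayed between −0.07 and −0.02 in the 3 comparisons and was not called.

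PFKM, the muscle-type subunit, rose only narrowly past the threshold with afatinib, at 108 ± 4 CPM against 96.7 ± 0.3 CPM with DMSO (0.16 ± 0.05, adjusted p = 0.031). The call ended when either of afatinib replicates 1 and 3 or of DMSO replicates 3 and 4 was dropped (adjusted p up to 0.107). It was also lost with RNA concentration as the covariate (adjusted p = 0.084). An exon of SENP1, at a mean of 33.1 CPM, overlaps PFKM on the opposite strand. SENP1 was at 0.12 ± 0.07 with afatinib, not called, and the part of such reads was not tested. PFKP, the platelet-type subunit, fell with paclitaxel (280 ± 23 against 322 ± 25 CPM with DMSO; −0.20 ± 0.05, adjusted p = 0.0070) and with the combination (283 ± 35 CPM; −0.19 ± 0.05, adjusted p = 0.0062). GPI, glucose phosphate isomerase, fell with paclitaxel (−0.16 ± 0.06, adjusted p = 0.046), a call lost in 12 of the 16 fits that leave out 1 library (adjusted p up to 0.154) and with the concentration covariate (adjusted p = 0.33). The hexokinases, which trap glucose in the cell, were called only with the combination, and in opposite directions. HK1 averaged 458 ± 40 CPM there and 410 ± 3 CPM with DMSO (0.16 ± 0.06, adjusted p = 0.031). HK2 averaged 196 ± 45 CPM there and 225 ± 16 CPM with DMSO (−0.22 ± 0.07, adjusted p = 0.011). The HK2 change was −0.43 in replicates 1 and 2 and −0.02 in replicates 3 and 4. For HK1 it was 0.05 in replicates 1 and 2 and 0.27 in replicates 3 and 4. Neither difference between the pairs was called (adjusted p = 0.59 for HK2 and 0.80 for HK1, edgeR test of that difference). The unadjusted p of that test was 0.00086 for HK2 and 0.043 for HK1, so the changes are not shown to be alike in both pairs. The HK1 call was lost without combination replicate 3 or 4 or DMSO replicate 3 or 4 (adjusted p up to 0.113) and with the concentration covariate (adjusted p = 0.16), and the HK2 call without combination replicate 1 or 2 or DMSO replicate 1 (adjusted p up to 0.094).

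Shares within isozyme families were computed per library from levels per length, so they depend on the deposited gene lengths. ENO2 made up 6.67% ± 0.76 of enolase transcripts with afatinib, 4.66% ± 0.38 with paclitaxel, 5.44% ± 0.35 with the combination and 5.63% ± 0.51 with DMSO. PFKP made up 67.6% ± 1.6 of phosphofructokinase transcripts with afatinib, 71.3% ± 1.1 with paclitaxel, 69.2% ± 1.7 with the combination and 71.7% ± 1.8 with DMSO. HK2 made up 29.7% ± 3.1 of the HK1 and HK2 transcripts with the combination, 35.4% ± 1.7 with afatinib, 34.6% ± 2.1 with paclitaxel and 35.5% ± 1.7 with DMSO. LDHB made up 48.5% ± 0.7 to 49.2% ± 0.8 of LDHA and LDHB transcripts in the treated groups and 49.0% ± 1.3 with DMSO. SLC16A1 made up 0.805% ± 0.223, 0.835% ± 0.217 and 1.33% ± 0.20 of the 2 lactate carriers' transcripts with afatinib, paclitaxel and the combination, and 1.26% ± 0.36 with DMSO. With labels exchanged within the concentration sets, the two-sided exact permutation test has 36 arrangements and cannot go below p = 0.0556. That smallest value was reached for the ENO2 share with afatinib and with paclitaxel, the PFKP share with afatinib and with the combination, the HK2 share with the combination and the SLC16A1 share with afatinib (adjusted p = 0.139 over 15 tests), so none could pass the threshold.

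Of the 3 regulators of flux, PDK1 gave the firmest rise with afatinib. PDK1, the kinase that shuts pyruvate dehydrogenase and so keeps pyruvate out of the mitochondria, had 29.3, 33.1, 29.1 and 27.9 CPM with afatinib, 19.8, 19.5, 21.2 and 20.2 with paclitaxel, 23.6, 25.3, 26.5 and 26.8 with the combination, and 19.9, 19.3, 23.1 and 20.8 with DMSO. Every afatinib and every combination library lay above every DMSO library, while paclitaxel overlapped DMSO. The change was 0.53 ± 0.07 with afatinib (adjusted p = 5.2e-06), 0.30 ± 0.07 with the combination (adjusted p = 0.0010) and −0.04 ± 0.07 with paclitaxel (95% interval −0.18 to 0.10). The afatinib rise was 0.68 within replicates 1 and 2 and 0.38 within replicates 3 and 4, and it was called in all 27 alternative fits.

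PFKFB3 and PFKFB4 make and break fructose 2,6-bisphosphate, the activator of phosphofructokinase. PFKFB3 rose with paclitaxel, at 89.4 ± 4.2 CPM against 77.0 ± 2.6 CPM with DMSO (0.21 ± 0.06, adjusted p = 0.011), and was 0.03 ± 0.06 with afatinib and 0.13 ± 0.06 with the combination. PFKFB4 was called with afatinib, at 18.4 ± 4.0 CPM against 14.8 ± 3.2 CPM with DMSO (0.31 ± 0.11, adjusted p = 0.043). The PFKFB4 groups overlapped, and the call ended when any of afatinib replicates 2 and 3, DMSO replicates 1, 3 and 4 or paclitaxel replicate 4 was dropped (adjusted p up to 0.159) and with the concentration covariate (adjusted p = 0.31). An exon of UCN2, at a mean of 15 CPM, overlaps PFKFB4 on the same strand. UCN2 was at −0.33 ± 0.14 with afatinib, not called, and the part of shared reads was not tested.

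In the oxygen-sensing pathway, afatinib lowered HIF1A RNA slightly and raised EGLN1, EGLN3 and KDM3A. HIF1A had 397, 401, 381 and 392 CPM with afatinib, 448, 433, 431 and 417 with paclitaxel, 376, 358, 400 and 398 with the combination, and 490, 423, 459 and 420 with DMSO. All afatinib and all combination libraries lay below all DMSO libraries, and paclitaxel overlapped DMSO. It fell with afatinib (−0.19 ± 0.06, adjusted p = 0.021) and with the combination (−0.23 ± 0.06, adjusted p = 0.0028), and was −0.05 ± 0.06 with paclitaxel. Dropping any of afatinib replicates 3 and 4 and DMSO replicate 1 ended the afatinib call (adjusted p up to 0.122), and so did the concentration covariate (adjusted p = 0.058).

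EGLN3, a prolyl hydroxylase that HIF-1 itself induces, had 7.85, 9.71, 9.97 and 8.10 CPM with afatinib, 4.38, 5.53, 6.30 and 4.85 with paclitaxel, 5.39, 6.61, 6.26 and 5.72 with the combination, and 5.47, 7.48, 7.54 and 6.34 with DMSO. Every afatinib library lay above every DMSO library, and the other groups overlapped DMSO. EGLN3 rose with afatinib (0.41 ± 0.12, adjusted p = 0.015) and fell with paclitaxel (−0.35 ± 0.12, adjusted p = 0.044), and was −0.16 ± 0.12 with the combination. Dropping any of afatinib replicates 2 and 3 and DMSO replicate 1 ended the afatinib call (adjusted p up to 0.068). The paclitaxel call was lost in 7 of the 16 fits that leave out 1 library (adjusted p up to 0.179) and with the concentration covariate (adjusted p = 0.052). EGLN1, the main oxygen sensor, averaged 91.0 ± 10.8 CPM with afatinib, 78.9 ± 6.0 with paclitaxel, 93.1 ± 7.5 with the combination and 77.7 ± 7.5 with DMSO. EGLN1 rose with afatinib (0.23 ± 0.06, adjusted p = 0.011) and with the combination (0.26 ± 0.06, adjusted p = 0.0013), by similar amounts in both pairs of replicates.

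KDM3A, a histone H3 lysine demethylase induced by HIF-1, rose with all 3 treatments. It had 49.7, 57.9, 62.7 and 60.5 CPM with afatinib, 42.8, 54.3, 55.5 and 53.6 with paclitaxel, 62.1, 62.8, 68.9 and 68.6 with the combination, and 39.4, 41.3, 46.8 and 47.2 with DMSO. The combination and afatinib libraries all lay above DMSO, and among the paclitaxel libraries only replicate 1 overlapped it. The change was 0.40 ± 0.06 with afatinib (adjusted p = 6.8e-05), 0.24 ± 0.06 with paclitaxel (adjusted p = 0.0074) and 0.59 ± 0.06 with the combination (adjusted p = 4.7e-08). The paclitaxel call was lost with the concentration covariate (adjusted p = 0.12).

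The carbonic anhydrases, which buffer the acid that glycolysis exports, were called only with afatinib. CA9 had 0.961, 1.01, 3.36 and 2.32 CPM with afatinib, 0.787, 0.491, 1.38 and 0.963 with paclitaxel, 0.689, 0.572, 1.86 and 1.39 with the combination, and 0.526, 0.670, 1.23 and 2.32 with DMSO. Replicates 3 and 4 were higher than 1 and 2 in every group, and afatinib overlapped DMSO in replicates 3 and 4. CA9 rose with afatinib (0.70 ± 0.21, adjusted p = 0.019), a call that ended when afatinib replicate 3 or either of DMSO replicates 1 and 3 was dropped (adjusted p up to 0.125) and with the concentration covariate (adjusted p = 0.46). The changes with paclitaxel (−0.28 ± 0.23) and the combination (−0.05 ± 0.22) were not called. An exon of ARHGEF39 overlaps CA9 on the opposite strand, and ARHGEF39, at a mean of 11.1 CPM, also rose with afatinib (0.36 ± 0.09, adjusted p = 0.0065) and with the combination (0.50 ± 0.09). Whether the counting used strand is not given in the sources used here, and a share of such reads in the CA9 values was not tested. CA12 averaged 25.1 ± 6.6 CPM with afatinib and 20.2 ± 6.0 CPM with DMSO (0.31 ± 0.08, adjusted p = 0.0099), a call that remained without any 1 library but was lost with the concentration covariate (adjusted p = 0.57).

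The secreted factors split: VEGFA and adrenomedullin were lower and ANGPTL4 was higher. VEGFA, the main angiogenic factor, had 71.8, 78.7, 144 and 134 CPM with afatinib, 62.7, 72.6, 102 and 114 with paclitaxel, 51.6, 58.6, 92.1 and 104 with the combination, and 88.6, 96.8, 139 and 176 with DMSO. Within each pair of replicates the paclitaxel and combination libraries lay below DMSO, while afatinib overlapped DMSO in replicates 3 and 4. VEGFA fell by 0.50 ± 0.07 on the log2 scale with paclitaxel (adjusted p = 2.6e-05) and by 0.72 ± 0.07 with the combination (adjusted p = 4.0e-08). With afatinib the change was −0.24 ± 0.07 (adjusted p = 0.024), a call that ended when any of afatinib replicates 1, 2 and 4 or DMSO replicates 2 and 4 was dropped (adjusted p up to 0.102). ADM, a vasodilator peptide, had 116, 110, 209 and 193 CPM with afatinib, 112, 100.4, 176 and 208 with paclitaxel, 86.0, 79.7, 150 and 195 with the combination, and 131, 130, 165 and 234 with DMSO. The combination libraries lay below DMSO in replicates 1 and 2 and overlapped it in replicates 3 and 4. ADM fell with the combination (−0.43 ± 0.11, adjusted p = 0.0039), by −0.65 within replicates 1 and 2 and −0.21 within replicates 3 and 4, and was not called with either single drug.

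ANGPTL4, an inhibitor of lipoprotein lipase that is induced by hypoxia and by PPAR receptors, had 7.76, 4.43, 10.6 and 10.03 CPM with afatinib, 13.4, 10.01, 14.6 and 17.99 with paclitaxel, 9.52, 7.85, 13.0 and 16.1 with the combination, and 6.57, 4.44, 6.31 and 9.06 with DMSO. Every paclitaxel library lay above every DMSO library, and within each pair of replicates so did the combination. It rose with paclitaxel (1.09 ± 0.17, adjusted p = 0.00017) and with the combination (0.80 ± 0.17, adjusted p = 0.0012), the largest rises among the 38 genes. With afatinib the change was 0.30 ± 0.17 (adjusted p = 0.26). In the authors' concentration-corrected log2 values the combination rise was not called (limma with the set term kept, adjusted p = 0.17).

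Of the 5 mitophagy and stress genes, paclitaxel lowered 3 (BNIP3, BNIP3L and DDIT4) and raised 1 (NDRG1), and each of the 3 falls was lost in at least 1 alternative given with it. BNIP3 and BNIP3L, paired receptors that mark mitochondria for autophagy, behaved differently with afatinib. BNIP3 had 123, 135, 99.97 and 98.8 CPM with afatinib, 81.6, 84.2, 70.6 and 66.0 with paclitaxel, 99.2, 108, 87.5 and 72.2 with the combination, and 102, 106, 86.4 and 73.8 with DMSO. Within each pair of replicates afatinib lay above DMSO and paclitaxel below it. BNIP3 rose with afatinib (0.31 ± 0.06, adjusted p = 0.00092), fell with paclitaxel (−0.28 ± 0.06, adjusted p = 0.0019) and was −0.01 ± 0.06 with the combination (95% interval −0.14 to 0.12). The paclitaxel fall was not called with the concentration covariate (adjusted p = 0.30), and the 20 BNIP3 pseudogene rows hold 4.36% as many counts as BNIP3.

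BNIP3L had 43.2, 43.9, 34.1 and 33.3 CPM with afatinib, 31.3, 31.6, 25.8 and 21.6 with paclitaxel, 33.9, 30.9, 26.1 and 24.2 with the combination, and 42.8, 40.1, 37.2 and 30.8 with DMSO. Within each pair of replicates the paclitaxel and combination libraries were below DMSO, the afatinib libraries lay slightly above DMSO in replicates 1 and 2, and they overlapped it in replicates 3 and 4. BNIP3L fell with paclitaxel (−0.46 ± 0.07, adjusted p = 1.6e-05) and with the combination (−0.40 ± 0.07, adjusted p = 2.8e-05) and was 0.03 ± 0.06 with afatinib. Both falls were lost in the authors' concentration-corrected log2 values (limma with the set term kept, adjusted p = 0.17 and 0.26). An exon of PNMA2, at a mean of 6.28 CPM, overlaps BNIP3L on the opposite strand, and PNMA2 fell as well (afatinib −0.38 ± 0.09, paclitaxel −0.48 ± 0.10, combination −0.92 ± 0.10). The part of such reads was not tested.

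DDIT4 (REDD1), an inhibitor of mTORC1, had 11.7, 17.1, 23.1 and 16.9 CPM with afatinib, 6.52, 10.6, 10.7 and 8.997 with paclitaxel, 9.85, 12.6, 14.4 and 12.9 with the combination, and 9.63, 16.2, 20.9 and 16.1 with DMSO. Paclitaxel replicates 2 and 3 lay above DMSO replicate 1 but below the other DMSO libraries. DDIT4 fell with paclitaxel (−0.75 ± 0.20, adjusted p = 0.017), a call lost without DMSO replicate 2 or 3 (adjusted p up to 0.059). The changes with afatinib (0.13 ± 0.19) and the combination (−0.32 ± 0.19) were not called. NDRG1, a stress-responsive gene of differentiation, had 39.0, 41.3, 52.7 and 43.6 CPM with afatinib, 44.1, 43.2, 52.1 and 52.3 with paclitaxel, 35.4, 39.0, 46.1 and 42.4 with the combination, and 35.0, 34.8, 40.0 and 37.5 with DMSO. All paclitaxel libraries exceeded all DMSO libraries. Afatinib and the combination exceeded DMSO within each pair of replicates and overlapped it across the pairs. NDRG1 rose with paclitaxel (0.38 ± 0.06, adjusted p = 6.1e-05) and with afatinib (0.26 ± 0.06, adjusted p = 0.0035; 0.066 with the concentration covariate). With the combination it was 0.14 ± 0.06 (adjusted p = 0.067). ANKRD37, the lowest of the genes per length, had 1.54 ± 0.28 CPM in DMSO and was between −0.20 ± 0.16 (afatinib) and 0.08 ± 0.16 (paclitaxel), not called. UFSP2, at a mean of 17.8 CPM, has an exon over ANKRD37 on the opposite strand, and the part of such reads was not tested.

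P4HA1 and P4HA2 encode catalytic subunits of the collagen prolyl hydroxylase and are HIF-1 targets. P4HA2 had 51.8, 56.2, 100.7 and 89.6 CPM with afatinib, 31.8, 30.1, 54.6 and 65.0 with paclitaxel, 32.5, 37.0, 66.4 and 84.8 with the combination, and 43.2, 48.1, 70.9 and 100 with DMSO. Paclitaxel lay below DMSO within each pair of replicates, and the combination did so in replicates 1 and 2. P4HA2 fell with paclitaxel (−0.54 ± 0.10, adjusted p = 0.00061) and with the combination (−0.28 ± 0.10, adjusted p = 0.032), where the call was lost without combination replicate 1, 2 or 3, DMSO replicate 2 or 4 or paclitaxel replicate 2 (adjusted p up to 0.154). With afatinib it was 0.20 ± 0.10, not called. P4HA1 averaged 149 ± 39 CPM with afatinib, 101 ± 22 with paclitaxel, 144 ± 36 with the combination and 123 ± 39 with DMSO. It rose with afatinib (0.29 ± 0.07, adjusted p = 0.0080), fell with paclitaxel (−0.26 ± 0.07, adjusted p = 0.014) and rose with the combination (0.24 ± 0.07, adjusted p = 0.013). With the concentration covariate the afatinib rise was not called (adjusted p = 0.48) and the combination value turned to −0.084 (adjusted p = 0.59). The paclitaxel call was lost without DMSO replicate 4 or paclitaxel replicate 1 or 3 (adjusted p up to 0.080), and the combination call without DMSO replicate 1 (adjusted p = 0.053).

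**Figure D3:**
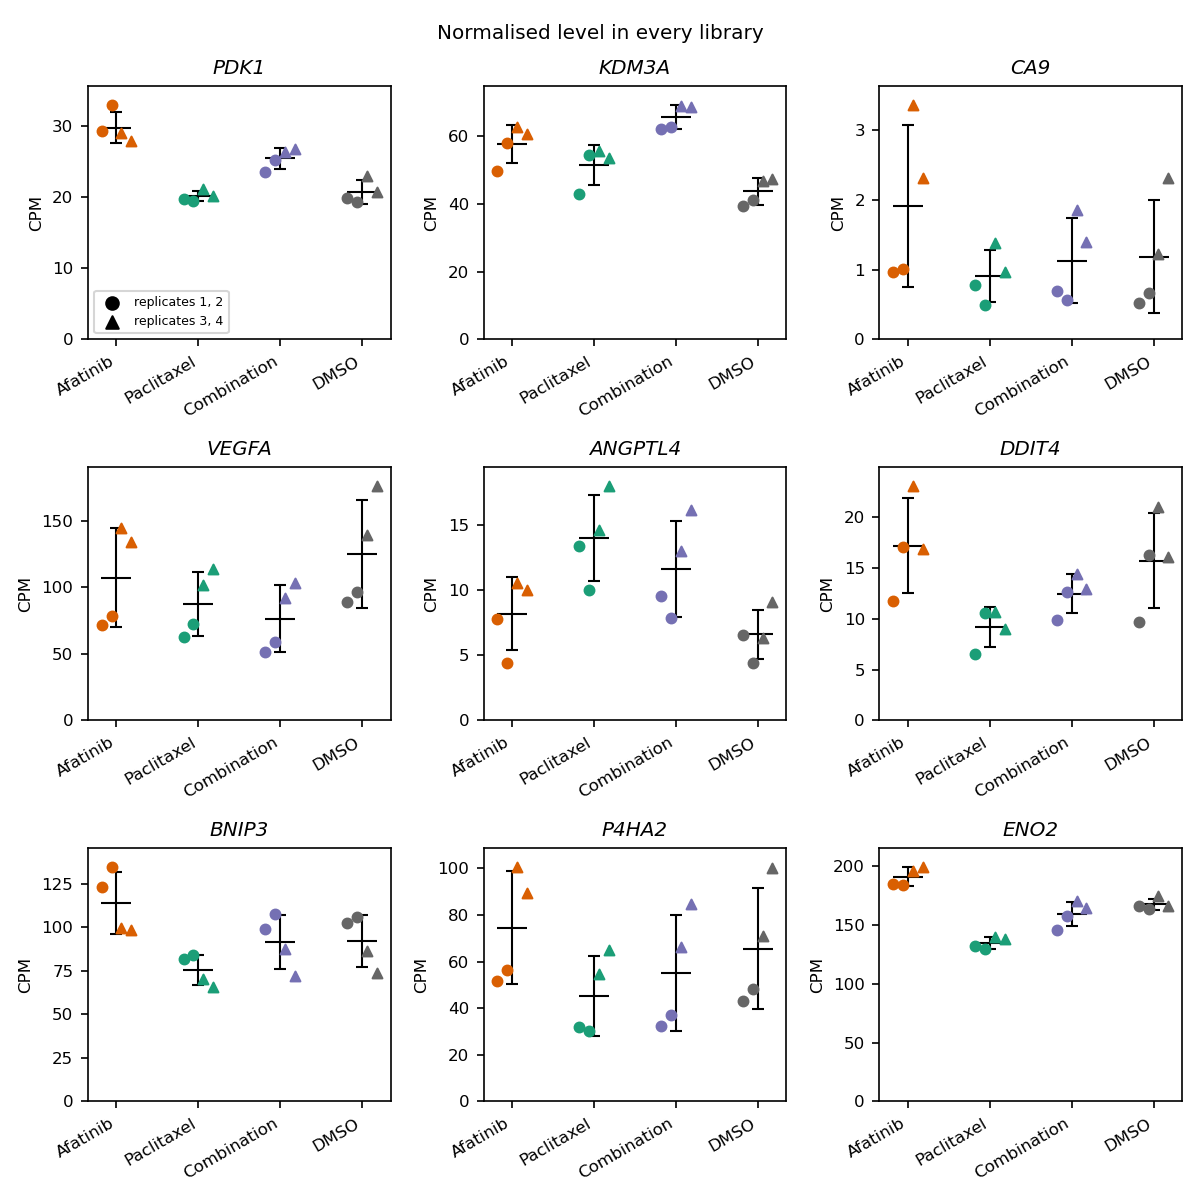
CPM in every library for 9 of the genes (y axes start at 0), with circles for replicates 1 and 2, triangles for replicates 3 and 4, and bars for the mean ± SD of 4 libraries. PDK1 is highest with afatinib (27.9 to 33.1 CPM), KDM3A with the combination (62.1 to 68.9 CPM) and ANGPTL4 with paclitaxel (10.01 to 17.99 CPM), while VEGFA, CA9 and P4HA2 separate by pair of replicates within each group.

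The afatinib libraries were also set directly against the paclitaxel libraries, a comparison added after the other results were seen. In this fit it equals the difference between the changes of both single drugs over DMSO. It gives how far the drugs differ and cannot test whether their directions are opposite. Afatinib was higher than paclitaxel for 15 of the 38 genes and lower for 2 (17 genes, 44.7%), where 36% of all genes tested were called (18.9% higher and 17.1% lower) and 45.7% of the well-expressed ones, against 15 of the 34 genes at that level. The share of genes called is thus near the background at that level. The median difference over the 38 genes was 0.09, beside −0.00 over all genes. The differences above 0.5 on the log2 scale were CA9 (0.98 ± 0.22), DDIT4 (0.88 ± 0.20), EGLN3 (0.75 ± 0.12), P4HA2 (0.74 ± 0.10), BNIP3 (0.59 ± 0.06), PDK1 (0.57 ± 0.07), P4HA1 (0.55 ± 0.07), PFKL (0.51 ± 0.06) and ENO2 (0.50 ± 0.05), with adjusted p between 2.2e-08 and 0.0036. Smaller differences of the same direction were called for BNIP3L, CA12, VEGFA, PFKM, EGLN1 and KDM3A. ANGPTL4 (−0.80 ± 0.17, adjusted p = 0.0012) and PFKFB3 (−0.18 ± 0.06, adjusted p = 0.019) were lower with afatinib. Of these 17 calls, 14 remained both without any 1 library and with the concentration covariate; the other 3 were PFKFB3, EGLN1 and KDM3A. With the replicate number as a block, 4 genes were lower with afatinib, GAPDH (adjusted p = 0.029) and HIF1A (adjusted p = 0.042) being added. No call was made for SLC16A1 (0.00 ± 0.14; 95% interval −0.29 to 0.29) or for the 13 glycolytic enzymes not called here. Their 95% intervals lay between −0.28 and 0.25.

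**Figure D4:**
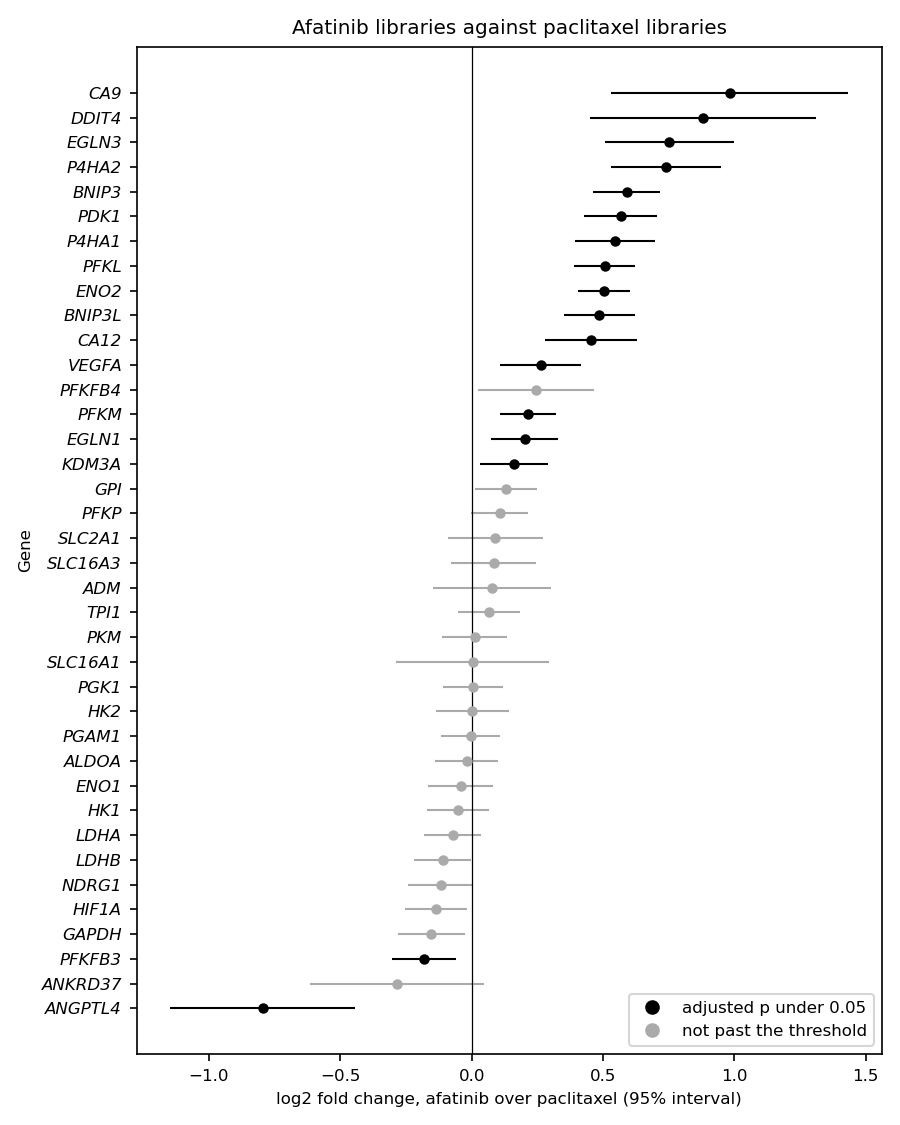
Log2 fold change of afatinib over paclitaxel for the 38 genes with 95% intervals; black marks an adjusted p below 0.05. The hypoxia-responsive genes CA9, DDIT4, EGLN3, P4HA2 and BNIP3 lie at the top, between 0.98 and 0.59, the abundant glycolytic enzymes lie around 0, and ANGPTL4 is at the bottom at −0.80.

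The combination differed from afatinib alone more by lower levels, and from paclitaxel alone more by higher levels. Against afatinib, 4 of the 38 genes were higher and 11 lower (39.5% called), where 27.4% of all genes were called (13.1% higher and 14.3% lower; 36.9% of the well-expressed genes, against 12 of the 34 glycolysis and hypoxia genes at that level, which is near that background). The falls relative to afatinib were CA9 (−0.75 ± 0.21), EGLN3 (−0.57 ± 0.12), VEGFA (−0.48 ± 0.07), P4HA2 (−0.48 ± 0.10), BNIP3L (−0.43 ± 0.07), ADM (−0.33 ± 0.11), BNIP3 (−0.32 ± 0.06), PFKL (−0.32 ± 0.06), ENO2 (−0.26 ± 0.05), PDK1 (−0.23 ± 0.07) and HK2 (−0.21 ± 0.07). The genes higher than with afatinib were SLC16A1 (0.60 ± 0.13), ANGPTL4 (0.50 ± 0.17), KDM3A (0.19 ± 0.06) and HK1 (0.17 ± 0.06). Leaving out 1 library ended the calls of HK1, HK2, PDK1, KDM3A, CA9, ADM and ANGPTL4 in 1 to 6 of 16 fits (adjusted p up to 0.17). Against paclitaxel, 9 genes were higher and 4 lower (34.2% called), where 24.2% of all genes were called (12.6% higher and 11.6% lower; 31.7% of the well-expressed genes, against 12 of the 34 at that level, also near that background). The higher genes were SLC16A1 (0.60 ± 0.13), P4HA1 (0.50 ± 0.07), KDM3A (0.35 ± 0.06), PDK1 (0.34 ± 0.07), CA12 (0.30 ± 0.08), BNIP3 (0.27 ± 0.06), ENO2 (0.24 ± 0.05), EGLN1 (0.24 ± 0.06) and PFKL (0.19 ± 0.06). The lower ones were NDRG1 (−0.24 ± 0.06), VEGFA (−0.22 ± 0.07), HK2 (−0.20 ± 0.07) and HIF1A (−0.17 ± 0.06). Leaving out 1 library ended the HK2, HIF1A and VEGFA calls in 5 of 16 fits each and the CA12 call without combination replicate 4 (adjusted p up to 0.17).

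For 36 of the 38 genes no departure of the combination from the sum of both single-drug changes was called. The test of that departure called 1 gene upward, SLC16A1, and 1 downward, NDRG1, which is 2 of the 38 (5.26%). Of all genes, 0.884% were called (0.389% upward and 0.495% downward). Among the well-expressed genes 1.17% were called, against 1 of the 34 glycolysis and hypoxia genes at that level, since SLC16A1 lies below it. For SLC16A1 the single-drug changes add up to −1.59, and the combination was at −0.20, a departure of 1.40 ± 0.19 (adjusted p = 0.00050; 1.12 within replicates 1 and 2, 1.65 within replicates 3 and 4). For NDRG1 they add up to 0.64, and the combination was at 0.14, a departure of −0.49 ± 0.09 (adjusted p = 0.0041; −0.45 and −0.55 within the pairs). Both remained without any 1 library, while the NDRG1 call was lost with the concentration covariate (adjusted p = 0.081). Neither was called without the set term (adjusted p = 0.31 for SLC16A1 and 0.83 for NDRG1). With the replicate number as a block, ANGPTL4 was called as well (−0.59, adjusted p = 0.015, against 0.30 without the block). The other 35 departures lay between −0.46 (CA9) and 0.30 (DDIT4), not called, and the intervals of the low genes were wide (−1.11 to 0.18 for CA9). VEGFA was at −0.72 beside a sum of −0.74 and KDM3A at 0.59 beside 0.64, with 95% intervals of the departure of −0.20 to 0.24 and −0.24 to 0.13.

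**Figure D5:**
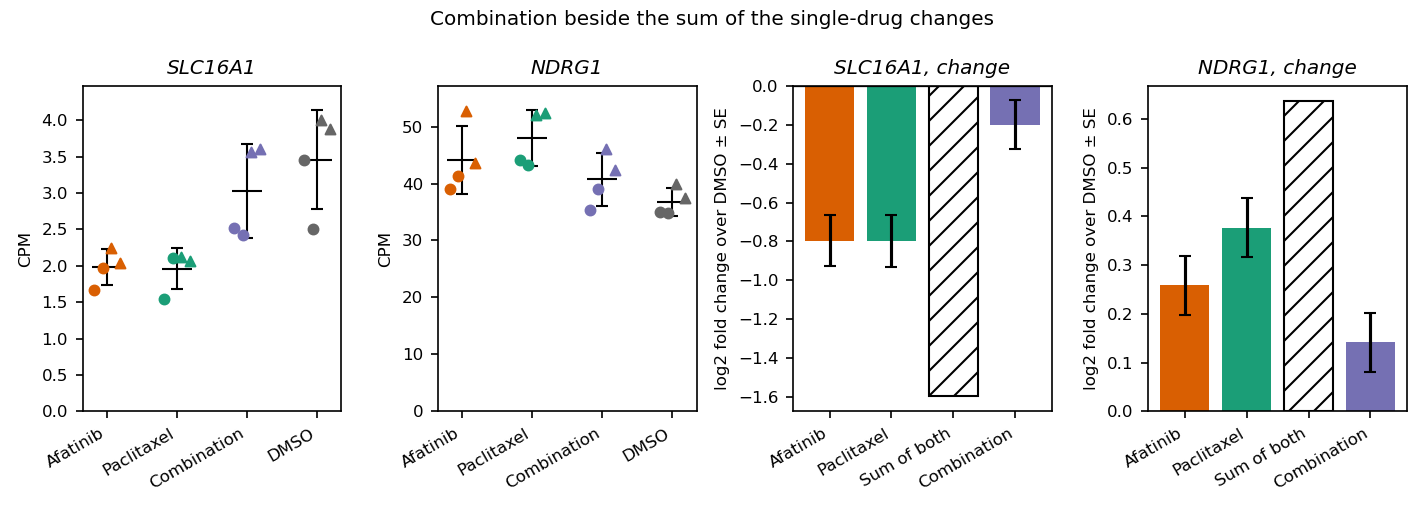
Left, CPM of SLC16A1 and NDRG1 in every library (circles replicates 1 and 2, triangles replicates 3 and 4, bars mean ± SD of 4); right, their log2 fold change over DMSO with each treatment (± SE) and, hatched, the sum of both single-drug values. The SLC16A1 combination bar is at −0.20 where the sum is −1.59, and the NDRG1 bar at 0.14 where the sum is 0.64.

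Between the replicate pairs (the concentration sets), a contrast of 8 libraries with 8, 29 of the 38 genes were called. In replicates 3 and 4 relative to replicates 1 and 2, 17 of the 38 genes were higher and 12 lower, where 69.5% of all genes were called (36.2% higher and 33.3% lower), so the count is near the background. The rises were CA9 (1.36 ± 0.16), SLC2A1 (1.07 ± 0.06), P4HA2 (0.95 ± 0.07), ADM (0.84 ± 0.08), SLC16A3 (0.83 ± 0.06), VEGFA (0.79 ± 0.05), CA12 (0.76 ± 0.06), P4HA1 (0.63 ± 0.05) and ANGPTL4 (0.61 ± 0.12), with 8 smaller ones. The falls were led by TPI1 (−0.38 ± 0.04), BNIP3L (−0.36 ± 0.05), BNIP3 (−0.35 ± 0.04), PGAM1 (−0.30 ± 0.04), GAPDH (−0.28 ± 0.04) and LDHB (−0.26 ± 0.04). Of the 16 enzymes, 3 were higher and 9 lower, and of the other 22 genes 14 were higher and 3 lower. The labels give no other difference between the pairs than RNA concentration, which was close in paclitaxel replicates 1 and 3 (345.6 and 300.5 ng/µl). Whether the pairs differ by concentration or by something unlabelled was not tested. PDK1 (0.06 ± 0.05), EGLN3 (0.08 ± 0.08), PFKM, PFKL, PFKFB3, HK1, PKM, HIF1A and ANKRD37 did not pass the test between the pairs. Whether a drug's change differed between the pairs was tested in a fit added after the other results were seen, and 0 of 17991 genes were called for any treatment by edgeR, with 1, 0 and 4 of the 38 genes at an unadjusted p below 0.05 for afatinib, paclitaxel and the combination; no other tool was run on this.

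Further genes of the same pathways, from 4 fixed lists, gave the setting. The shares of all genes called higher and lower, against which their counts are to be read, were 9% and 10.1% with afatinib, 8.65% and 11.9% with paclitaxel, and 18.5% and 19.5% with the combination. Among 27 tested genes of glycolysis and pyruvate oxidation, 6 rose and 3 fell with afatinib, 2 rose and 6 fell with paclitaxel, and 7 rose and 5 fell with the combination, where the total of 12 is near the 38% of all genes called. HKDC1, a hexokinase-like enzyme, rose with every treatment, to 4.95 ± 0.87 CPM with afatinib, 5.44 ± 0.10 with paclitaxel and 8.36 ± 0.42 with the combination, against 2.85 ± 0.26 with DMSO (log2 fold changes 0.79 ± 0.11, 0.93 ± 0.11 and 1.55 ± 0.11). With afatinib the aldolase ALDOC (0.56 ± 0.10) and the pyruvate dehydrogenase kinase PDK2 (0.34 ± 0.07) rose, and the phosphoglucomutase PGM2 fell (−0.26 ± 0.05). With paclitaxel PGM1 (−0.56 ± 0.06) and the mitochondrial glycerol phosphate dehydrogenase GPD2 (−0.24 ± 0.06) fell, and PFKFB2 rose (0.35 ± 0.07). With the combination the pyruvate dehydrogenase phosphatase PDP1 (−0.54 ± 0.06), PGM1 (−0.45 ± 0.06) and the dehydrogenase subunit PDHB (−0.37 ± 0.06) fell. Of 13 pentose phosphate and glycogen genes, none rose and 2 fell with afatinib, none rose and 4 fell with paclitaxel, and 1 rose and 2 fell with the combination. The liver-type glycogen phosphorylase PYGL fell with afatinib (−0.33 ± 0.05) and the combination (−0.27 ± 0.05), and with paclitaxel PYGB (−0.23 ± 0.06) and PGD (−0.23 ± 0.06) fell.

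Of 14 further genes of HIF control, none rose and 2 fell with afatinib, 3 rose and 4 fell with paclitaxel, and 3 rose and 7 fell with the combination. ARNT2, a partner of HIF subunits, fell to 15.8 ± 0.7 CPM with afatinib, 15.9 ± 0.5 with paclitaxel and 11.9 ± 1.5 with the combination, against 19.4 ± 0.3 with DMSO. The inhibitor HIF1AN (FIH) fell with paclitaxel (−0.32 ± 0.06) and the combination (−0.48 ± 0.06), VHL fell with the combination (−0.41 ± 0.05), and RBX1, a subunit of the VHL ubiquitin ligase, fell with paclitaxel (−0.36 ± 0.07). The coactivators CREBBP and EP300 rose with paclitaxel (0.34 ± 0.06 and 0.27 ± 0.06), and CREBBP rose with the combination (0.56 ± 0.06). Of 43 further hypoxia-responsive genes, 12 rose and 8 fell with afatinib, 11 rose and 9 fell with paclitaxel, and 15 rose and 14 fell with the combination. With afatinib PPFIA4 (0.95 ± 0.12), the repressor BHLHE41 (0.67 ± 0.09) and the lipid droplet protein PLIN2 (0.31 ± 0.05) rose. With paclitaxel the arrestin-domain proteins ARRDC3 (1.42 ± 0.15) and TXNIP (0.52 ± 0.07) and PLIN2 (0.44 ± 0.05) rose, and the receptor VLDLR fell (−0.69 ± 0.09). With the combination ARRDC3 (1.67 ± 0.15), PLIN2 (0.62 ± 0.05) and the demethylase KDM4B (0.51 ± 0.05) rose, and PLOD2, a collagen lysyl hydroxylase, fell (−0.90 ± 0.08). These genes were named by smallest p, not by size, and the combination changes in the list ran from −1.92 to 1.67. The medians of the 43 genes were 0.03, 0.07 and 0.03 with afatinib, paclitaxel and the combination.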

How the data were processed

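RNA sequencing libraries from 16 MDA-MB-231 samples were analysed, 4 in each of 4 groups given by the treatment label. The authors deposited raw counts per gene, for which the submitters' processing notes list STAR 2.7.5b, featureCounts, Subread 2.0.1 and the hg38 build. The annotation, strand and multi-mapping settings are not given in the sources used here. They also deposited log2 values corrected for RNA concentration, used only as an alternative with limma. That fit kept the concentration set as a term, on top of the authors' correction. Rows with an Ensembl ID but no gene symbol (171) made up 0.036% to 0.0462% of each library and stayed in the fit.

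Counts were fitted with edgeR 4.0.16 (robust quasi-likelihood F test, TMM factors) in R 4.3.3, over all 16 libraries, with treatment and concentration set (replicates 1 and 2 or 3 and 4) as terms. Genes needed the default filterByExpr minimum (count 10, total 15), which kept 17991 of 37864. P-values were adjusted (Benjamini-Hochberg) over all of them and called below 0.05. Libraries held 28366004 to 48108577 counts, so counting error matters mainly for the low genes CA9, SLC16A1 and ANKRD37. Same-numbered libraries of different groups deviated together (correlations 0.37 to 0.70), which meets the criterion for pairing. Libraries of the same set with another number did so nearly as much (0.38 to 0.67). With set means removed the same-number correlations were −0.0033 to 0.23, with a median of 0.13, so some pairing by number may remain. The fit has the set, not the number, as a term.

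Alternatives were no set term, a replicate block, log2 RNA concentration, each pair of replicates alone, relative log expression factors, DESeq2 1.42.0, no filter, added pseudogene counts, limma 3.58.1 on the authors' log2 values, and leaving out each library. Genes given with per-library values were the 12 called with the largest change and 6 pathway genes; others were added after their values were seen. Up to 4 genes per further list and treatment were named, those with the smallest p. Some genes that this rule picks are not reported here. The 38 genes, the lists and the tests were chosen with earlier results of these data known.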

Additional observations from a re-analysis of the deposited data

Results flagged for a closer look

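Among the 152 sets of 4 libraries formed by a gene and a group, 2 held a library that stood apart from the other 3 by Dixon's criterion, which chance meets in about 1 in 20 sets. Both were paclitaxel replicate 1: SLC16A1 at 1.55 CPM, with the others at 2.07 to 2.12 CPM, and KDM3A at 42.8 CPM, with the others at 53.6 to 55.5 CPM. The change with both drugs differed from the sum of the single-drug changes by 1.40 on the log2 scale for SLC16A1 and by −0.49 for NDRG1, each by the test of that difference.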

How the results depend on the processing

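Of the values of single genes under 27 alternatives, 7377 kept their direction and side of the threshold, 422 lost the call, 101 gained one and 4 changed sign. A change of sign in a value that passed in neither fit was counted as kept. The 4 were TPI1 with the combination (0.051 with log2 RNA concentration, 0.032 in the authors' log2 values), P4HA1 with the combination (−0.084 with log2 RNA concentration) and HK2, combination against afatinib, within replicates 3 and 4 (0.0013). The cause was not tested.

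Without the set term the counts higher and lower were 1 and 1 with afatinib, 0 and 3 with paclitaxel, 2 and 0 with the combination, 0 and 3 for combination against afatinib, 1 and 0 for combination against paclitaxel, 0 and 0 for the departure, and 6 and 0 for afatinib against paclitaxel. With log2 RNA concentration they were 7 and 2 with afatinib; combination against afatinib had 1 higher, combination against paclitaxel 1 lower, the departure 0 lower and afatinib against paclitaxel 4 lower. Within replicates 1 and 2, with fewer libraries, they were 5 and 0 with afatinib and 2 and 8 with paclitaxel; 0 were higher against afatinib, 5 higher against paclitaxel, 0 and 0 for the departure, and 0 lower for afatinib against paclitaxel. Within replicates 3 and 4 they were 2 and 1 with afatinib, 2 and 4 with paclitaxel, 2 lower with the combination, 1 and 5 against afatinib, 4 and 0 against paclitaxel, 0 lower for the departure, and 1 lower for afatinib against paclitaxel. In the authors' log2 values they were 7 and 2 with afatinib, 2 higher with paclitaxel, 3 higher with the combination, 1 higher against afatinib, 0 lower against paclitaxel and 0 lower for the departure. The replicate block gave 2 lower departures and 4 genes lower for afatinib against paclitaxel, and it changed no other call enough to move a count by over 1.5 times. Over all genes, 501 departures were called with the block and 159 without it. With afatinib, paclitaxel and the combination against DMSO, 4446, 4609 and 7681 of all genes were called with the block. Without it 3432, 3694 and 6830 were called. The count lower for afatinib against paclitaxel was 4 with relative log expression factors, 5 with DESeq2 and 1 without the filter, which also gave 2 lower departures. Of all 17991 genes, 380, 625 and 2310 were called with afatinib, paclitaxel and the combination without the set term. With log2 RNA concentration 2294, 5407 and 7009 were called. Within replicates 1 and 2 these numbers were 1243, 1798 and 4671, and within replicates 3 and 4 they were 516, 772 and 3169. The authors' log2 values gave 1961, 4185 and 5601.

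Leaving out 1 library gave 9 to 13 higher and 2 to 4 lower with afatinib, 4 and 9 to 13 with paclitaxel, 5 to 8 and 6 to 11 with the combination, 1 to 4 and 8 to 13 against afatinib, 8 to 11 and 1 to 5 against paclitaxel, 1 and 1 for the departure, 13 to 16 and 1 to 3 for afatinib against paclitaxel, and 15 to 17 and 12 between the sets. Low counts widen the intervals of CA9, SLC16A1 and ANKRD37.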
